A study of Mus musculus with 15 samples.

Results

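This is a comparison of 2 mouse embryonic stem (ES) cell lines: FpB6CBA, a parthenogenetic line, and NmB6D2, a line from fertilised embryos. Its members are the 3 arrays titled for each line, 6 of the 15 arrays of the series, chosen by title. FpB6CBA was derived from oocytes that were grown in cultured preantral follicles of B6CBAF1 females (C57BL6 mother, CBA/Ca father) and then activated without sperm. The follicle donors were 2 weeks old. NmB6D2 was derived from embryos of C57BL6 females mated naturally with DBA2 males. The other lines served here for side-by-side values only: OpB6D2 (parthenogenetic, ovulated oocytes of B6D2F1 females), FpB6D2 (parthenogenetic, follicle-grown oocytes of B6D2F1 females) and R1 (fertilised, purchased). Each line is a single derivation, and no label says that its arrays came from separate cultures, so p values measure only the spread between arrays, which may be technical. Mode of origin, the CBA/Ca or DBA2 contribution, the Y chromosome and the history of each line cannot be told apart between FpB6CBA and NmB6D2.

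Parthenogenetic cells carry chromosome sets of maternal origin only. Imprinted genes are expressed from 1 parental allele, so genes expressed from the paternal allele, such as Igf2 and Peg3, lack their active copy in such cells unless the imprint is lost. ES cells correspond to the epiblast of the blastocyst. Cultures can also hold cells of primitive endoderm type, which lay down basement membrane and take up nutrients through endocytic receptors. Genes of meiosis and of transposon control in germ cells are kept silent in most somatic cells, many of them through methylated promoters.

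Values are log2 intensities, in which 1 unit is a 2-fold difference, and every difference below is FpB6CBA minus NmB6D2 unless another line is named. Each gene was read from 1 probe set, and a value of 3.864, the median of all deposited values, was the lower limit for testing. The ES cell label fitted both lines by its markers. Pou5f1, the core pluripotency factor, read 11.35, 11.41 and 11.37 in FpB6CBA and 11.47, 11.51 and 11.38 in NmB6D2. Sox2 read 10.95 to 11.06 in FpB6CBA and 10.85 to 11.04 in NmB6D2. Across genes, FpB6CBA arrays correlated at 0.993 to 0.996 with each other, at 0.971 to 0.974 with NmB6D2 and at 0.910 to 0.954 with the other 3 lines. Array controls differed between the lines: the poly-A spike-in controls read 7.45 to 8.20 in FpB6CBA and 6.81 to 6.94 in NmB6D2, and the 3' minus 5' difference of the actin control probe sets, which rises as RNA is degraded or copied incompletely, was 0.66 to 0.76 against 0.48 to 0.53. Replicate 3 of FpB6CBA stood apart from the other FpB6CBA arrays (median of tested genes 6.63 against 6.77 in both). Hybridisation controls read 10.16, 10.2 and 9.43 in FpB6CBA replicates 1 to 3 and 9.22 to 9.51 in NmB6D2. The 18S rRNA probe sets read 6.35, 6.26 and 5.9 against 5.66 to 5.89. On both, replicates 1 and 2 lay further from NmB6D2 than replicate 3. The part of these array differences in the results was not tested beyond leaving out each array.

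Of 12813 genes tested, 538 (4.20%) were called, that is, they differed at least 2-fold at a limma adjusted p under 0.05. Of these, 329 genes (2.57% of those tested) were higher in FpB6CBA and 209 (1.63%) were lower, and the median difference of all tested genes was 0.02. Meiosis and germ-line genes and primitive endoderm genes were the lists with most rises. Genes expressed from the paternal allele, targets of FGF-ERK signalling and DNA methylation enzymes were among those with most falls. Without replicate 3 of FpB6CBA, 387 genes were called higher and 175 lower. With every probe set counted on its own, 463 were higher and 502 lower of 21960.

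**Figure D1:**
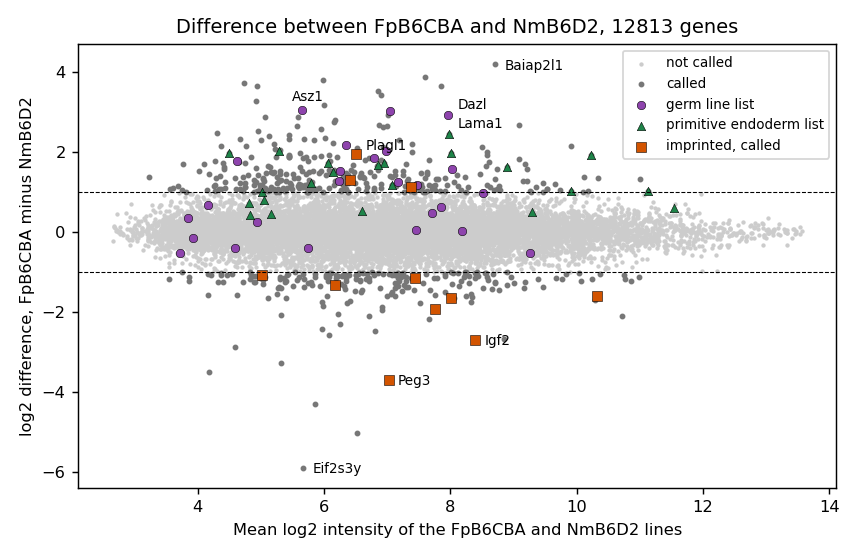
Log2 difference (FpB6CBA minus NmB6D2, vertical axis) against the mean log2 intensity of both lines (horizontal axis) for 12813 tested genes, 1 point per gene; dashed lines mark the 2-fold limits and dark grey points are the 538 called genes. Germ-line genes (circles) and primitive endoderm genes (triangles) lie mainly above 0, whereas Peg3 (-3.68), Igf2 (-2.68) and Eif2s3y (-5.88) lie far below it.

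Germ-line genes were higher in FpB6CBA: of 25 tested, 12 rose and 0 fell, with a median difference of 0.97 against 0.02 for all genes. Asz1, a piRNA pathway gene of germ cells, read 7.20, 7.41 and 6.94 in FpB6CBA and 4.19, 4.14 and 4.04 in NmB6D2. No array of either line overlapped the other, and the difference was 8.35-fold (3.06 ± 0.21 SE, adjusted p = 6.5e-08, 3 arrays per line). Smc1b, a meiotic cohesin subunit, read 8.64, 8.66 and 8.38 against 5.64, 5.33 and 5.62, a rise of 8.18-fold (3.03 ± 0.11, adjusted p = 1.3e-10). Dazl, a germ-cell RNA-binding protein gene, read 9.43, 9.44 and 9.45 against 6.45, 6.59 and 6.45 and rose 7.68-fold (2.94 ± 0.08). For Dazl the other parthenogenetic lines read as high, with means of 9.70 in OpB6D2 and 9.54 in FpB6D2. For Smc1b and Asz1, FpB6CBA exceeded OpB6D2 by 2.07 and 2.25, and FpB6D2 by 2.49 and 3.03, and all 4 of these differences were called in the same fit. The components of the synaptonemal complex, which joins homologous chromosomes in meiosis, also rose. Sycp3 read 7.94, 8.00 and 8.05 against 6.04, 6.02 and 5.86 (2.02 ± 0.13), and Sycp1 read 7.79, 7.85 and 7.52 against 5.78, 5.97 and 5.87 (1.85 ± 0.11). Slc25a31, a mitochondrial ADP/ATP carrier of the germ line, rose 4.55-fold (2.19 ± 0.12). The remaining rises were Brdt (at least 3.10-fold, because NmB6D2 lay below the limit for testing), Tdrd12 (1.58), Mov10l1 (1.54), Stk31 (1.27), Taf7l (1.26) and Stag3 (1.17). Other germ-line genes were not called. The helicase gene Ddx4 differed by 0.06 ± 0.16, Dmrt1 by 0.04 ± 0.09, the oocyte growth factor gene Gdf9 by 0.26 ± 0.09, and Tex19.1 by -0.53 ± 0.08. Outside the list, Gtsf1, another piRNA pathway gene, read 8.49, 8.52 and 8.45 against 5.62, 5.50 and 5.53 (2.94 ± 0.09). Rhox13, an X-linked homeobox gene of germ cells, read 9.66, 9.67 and 9.70 against 6.08, 5.85 and 6.12, a rise of 12.7-fold (3.66 ± 0.08). The germ-line count of rises was 12 to 13 when each array was left out in turn. It was 9, with 1 fall, without the array's ambiguous probe sets (those whose names mark a possible match to several transcripts).

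The promoters of these genes were searched for short motifs. The E-box CACGTG, which reads the same on both strands and is bound by Myc-Max and related factors, lies in the 250 bases before the start of 8 of the 12 called germ-line genes (66.7%). It is not in the windows of Asz1, Smc1b and Dazl, the largest rises of the list, nor in that of Tdrd12. It lies in 4 of the 10 germ-line genes that were tested, not called and had a promoter (40.0%), in 9.94% of 10333 tested genes with a promoter and in 6.86% of all 27025 genes of the promoter table. Among all genes called higher the share was 14.2% and among those called lower 10.7%. The other motifs were searched on both strands too, and each was found in at most 2 of the 12. For E2F factors these were TTCCCGCC and its core TCCCGC, which lies within it. For GATA factors AGATAA was searched, and GATAAG, which overlaps with it in part. For NRF1 the motif was CGCATGCG, for ETS factors TTCCGG and for homeobox factors CTAATTAA. For Sox factors ATTGTT was searched, and in a longer form ACAATAG was too. A match is a description of the letters and does not show that a factor binds. The 4 promoters below hold the motif, in capitals, and that of Dazl is shown as a strongly changed gene without it. They are RefSeq sequences of build GRCm38.p6, each the 250 bases that end just before the start, printed 5' to 3' on the strand of the gene. Sycp3 lies at chr10:88459337-88459586 (plus strand), Sycp1 at chr3:102936101-102936350 (minus), Brdt at chr5:107330944-107331193 (plus), Slc25a31 at chr3:40708621-40708870 (plus) and Dazl at chr17:50293621-50293870 (minus).
Sycp3: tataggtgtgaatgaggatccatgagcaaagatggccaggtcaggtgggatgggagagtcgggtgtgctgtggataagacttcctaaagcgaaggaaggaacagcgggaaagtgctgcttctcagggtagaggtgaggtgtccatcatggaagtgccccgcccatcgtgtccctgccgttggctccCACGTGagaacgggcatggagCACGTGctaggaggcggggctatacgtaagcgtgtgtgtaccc
Sycp1: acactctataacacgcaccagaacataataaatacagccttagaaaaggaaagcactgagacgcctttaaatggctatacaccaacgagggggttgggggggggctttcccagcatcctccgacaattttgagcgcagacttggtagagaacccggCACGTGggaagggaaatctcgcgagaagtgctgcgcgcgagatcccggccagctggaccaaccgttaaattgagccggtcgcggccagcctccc
Brdt: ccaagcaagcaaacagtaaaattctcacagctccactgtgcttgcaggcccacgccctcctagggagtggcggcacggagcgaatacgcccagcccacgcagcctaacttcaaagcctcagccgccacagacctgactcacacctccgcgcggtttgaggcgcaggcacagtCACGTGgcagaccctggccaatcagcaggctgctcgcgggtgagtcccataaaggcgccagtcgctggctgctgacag
Slc25a31: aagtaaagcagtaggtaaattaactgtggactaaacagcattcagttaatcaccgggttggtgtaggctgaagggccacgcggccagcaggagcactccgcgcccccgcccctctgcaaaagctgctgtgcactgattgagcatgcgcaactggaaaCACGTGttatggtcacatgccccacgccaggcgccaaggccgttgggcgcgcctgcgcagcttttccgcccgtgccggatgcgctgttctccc
Dazl: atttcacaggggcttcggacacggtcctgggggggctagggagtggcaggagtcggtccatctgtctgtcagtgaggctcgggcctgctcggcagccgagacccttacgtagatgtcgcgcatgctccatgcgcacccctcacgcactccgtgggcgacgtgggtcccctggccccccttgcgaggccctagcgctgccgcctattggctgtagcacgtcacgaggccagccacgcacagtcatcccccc
Counted from the start, with -1 the base just before it, the motif begins at -64 and -43 in Sycp3, at -94 in Sycp1, at -78 in Brdt and at -93 in Slc25a31. These windows hold between 12 (Sycp3) and 20 (Dazl) CG pairs. Myc itself, whose protein binds this motif with Max, fell 4.93-fold: it read 5.11, 5.08 and 5.10 in FpB6CBA against 7.42, 7.33 and 7.45 in NmB6D2 (-2.30 ± 0.06, adjusted p = 3.6e-12). A link between the level of Myc and the germ-line rises was not tested.

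Primitive endoderm genes were the other group with most rises: 14 of 22 tested rose, 0 fell, the median difference was 1.20 and all 22 differences were above 0. The mean level over the list was 7.62 to 7.86 on the FpB6CBA arrays and 6.43 to 6.61 on the NmB6D2 arrays, which do not overlap. Among the transcription factors that specify this lineage, Sox17 read 6.30, 6.21 and 6.42 against 4.29, 4.17 and 4.36 (4.10-fold, 2.03 ± 0.12, adjusted p = 1.9e-08). Foxa2 was at least 3.08-fold higher, and Gata6 read 6.99, 6.90 and 6.80 against 5.33, 5.15 and 5.68 (1.51 ± 0.12). Gata4 read 5.85, 5.33 and 5.35 against 4.60, 4.37 and 4.57 and missed the fold minimum narrowly (1.00 ± 0.16, adjusted p = 0.00012, not called). Pdgfra, the receptor that marks the lineage, rose by 1.22 ± 0.18. Basement membrane genes followed. Lama1, a laminin chain, read 9.29, 9.55 and 8.79 against 6.53, 6.86 and 6.87, a rise of 5.50-fold (2.46 ± 0.16). Col4a1 read 11.33, 11.28 and 10.98 against 9.18, 9.31 and 9.30 (3.81-fold, 1.93 ± 0.10), and its partner chain Col4a2 rose 3.10-fold. Lamb1 and Sparc rose by 1.03 and 1.04. Of the endocytic receptor system, Cubn (1.68 ± 0.26) and its partner Amn (1.73 ± 0.13) rose, whereas the third receptor, Lrp2, read 7.12, 7.33 and 6.15 against 6.23, 6.51 and 6.26 and was not called (0.54 ± 0.25, adjusted p = 0.089). Replicate 3 gave the lowest of the FpB6CBA values for Lama1, Col4a1, Cubn and Lrp2. The adaptor gene Dab2 rose by 1.98 ± 0.13, but by 0.43 and without a call when ambiguous probe sets were left out. Apoa1 and Ttr, secreted proteins of visceral endoderm, were not called (0.44 ± 0.10 and 0.45 ± 0.13). The count was 13 to 15 when each array was left out in turn, 15 without replicate 3, and 11 when the probe sets of a gene were averaged.

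The same list separated FpB6CBA from the other lines in the shared fit, which reuses the FpB6CBA arrays. FpB6CBA was called higher than OpB6D2 for 12 of the 22 genes and lower for 0, against 5.05% and 4.97% of all tested genes. It was called higher than FpB6D2 for 15 and lower for 2 (6.03% and 5.14% of all genes), and higher than R1 for 9 and lower for 1 (8.55% and 9.67%). Gata4 and Sox17 show where R1 differs: the R1 mean was 7.40 for Gata4 and 6.21 for Sox17. In these bulk samples, more cells of a type and more RNA per cell cannot be told apart. Fibroblast markers, which mark feeder cells, shifted in the same direction: 25 of 27 were above 0 (median 0.46), and 3 rose, S100a4 (1.51 ± 0.08), Lox (1.39 ± 0.13) and Dcn (1.30 ± 0.14). Lox and Dcn were lost when probe sets were averaged (0.98 and 0.65), where each average includes a probe set below the limit for testing in both lines. The mean level over the fibroblast list was 6.98 to 7.30 in FpB6CBA and 6.59 to 6.72 in NmB6D2, against 7.24 to 7.66 in OpB6D2, 7.16 to 7.25 in FpB6D2 and 7.82 to 7.91 in R1. FpB6CBA was thus above NmB6D2 but not above the other lines for these markers (median difference -0.39 from OpB6D2 and 0.00 from FpB6D2). The interstitial collagens Col1a1 (0.26 ± 0.18) and Col1a2 (0.36 ± 0.14) and Acta2 (0.11 ± 0.09), abundant in fibroblasts, were not called. Their part in the rise of the basement membrane genes was not tested.

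**Figure D2:**
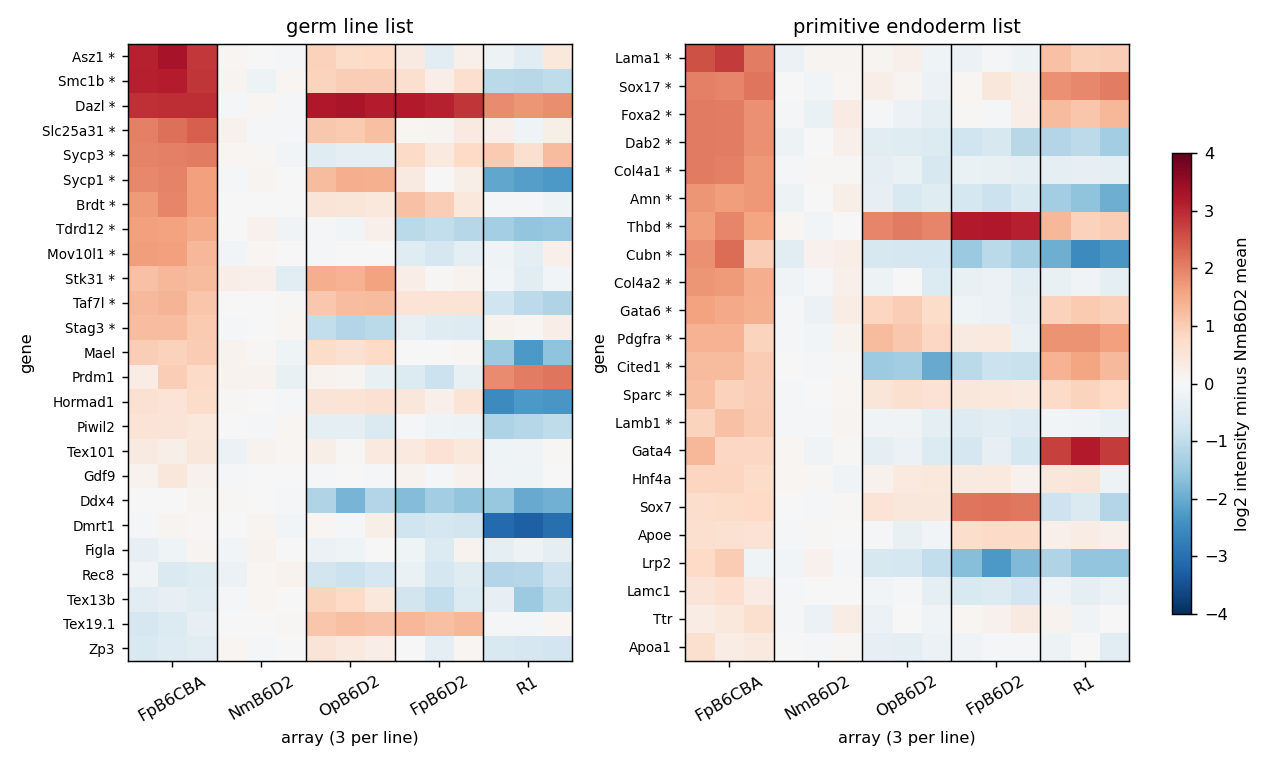
Log2 intensity minus the NmB6D2 mean (colour) of each tested germ-line gene (left) and primitive endoderm gene (right) on all 15 arrays, 3 per line, ordered by the difference between FpB6CBA and NmB6D2; an asterisk marks a called gene. The 3 FpB6CBA arrays are red for 12 called germ-line and 14 called endoderm genes, Dazl is also high in OpB6D2 and FpB6D2, and Gata4 is high in R1.

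Imprinted genes changed unevenly. Of 23 tested genes expressed from the paternal allele, 7 fell and 2 rose, with a median of -0.06. Peg3, a zinc finger gene, read 5.37, 5.23 and 4.95 in FpB6CBA and 8.81, 8.91 and 8.88 in NmB6D2, a fall of 12.8-fold (-3.68 ± 0.11, adjusted p = 1.5e-11). All 3 probe sets of Peg3 that were above the limit for testing in NmB6D2 showed it (-3.78, -3.31 and -3.68). OpB6D2 (10.23), FpB6D2 (9.56) and R1 (10.21) had means above that of NmB6D2, so FpB6CBA alone of the 5 lines was low for Peg3, and its differences from those lines were all called (-5.04, -4.38 and -5.02). Igf2, a fetal growth factor gene, read 7.06, 7.11 and 7.00 against 9.74, 9.68 and 9.79, a fall of 6.39-fold (-2.68 ± 0.16, adjusted p = 1.4e-08). Igf2 was low in all 3 parthenogenetic lines, with means of 6.09 in OpB6D2 and 5.89 in FpB6D2, both lower than in FpB6CBA, and highest in R1 (11.34). The other Igf2 probe set lay below the limit for testing in FpB6CBA and NmB6D2, so the fall rests on 1 probe set. Nnat, a membrane proteolipid gene, fell 3.75-fold (-1.91 ± 0.15) and Sfmbt2, a Polycomb-related gene, 3.14-fold (-1.65 ± 0.12). Zdbf2 read 5.50, 5.60 and 5.42 against 6.83, 6.93 and 6.73 (-1.32 ± 0.09), and Mest, a hydrolase gene, read 6.74, 7.07 and 6.77 against 7.98, 8.11 and 7.93 (-1.15 ± 0.09). Kcnq1ot1, the long non-coding RNA of the Kcnq1 cluster, fell by 1.06 and was lost without replicate 3 of NmB6D2 (-0.92). The 2 genes that rose, Plagl1 (1.96 ± 0.12) and Sgce (1.13 ± 0.07), each rest on 1 ambiguous probe set. Without ambiguous probe sets 0 genes of the list rose. Both rises were also lost when probe sets were averaged (0.78 and 0.50). The other probe sets of Plagl1 and Sgce lay below the limit for testing in both lines and so pulled the averages towards 0. Other genes of this list were not called. Ndn differed by 0.42 ± 0.08, Impact by 0.70 ± 0.07, Dlk1 by 0.77 ± 0.10, Mcts2 by 0.48 ± 0.05, Slc38a4 by 0.29 ± 0.06, Gab1 by -0.10 ± 0.07, Jade1 by -0.27 ± 0.05 and Snrpn by -0.51 ± 0.12. The other Impact probe sets gave 1.20, past the fold minimum, and -0.14, below the limit for testing in both lines. Peg10 read 6.32, 6.17 and 5.05 against 5.52, 5.50 and 5.63, so the FpB6CBA values spanned the NmB6D2 values. Inpp5f (-0.17), Ins2 (-0.06), Smoc1 (0.09), Mkrn3 (-0.04) and Peg12 (0.05) lay within 0.2 of 0, and Mkrn3 and Peg12 were below the limit for testing in both lines. Snhg14, the RNA host of the Snrpn-Ube3a region and not a list member, fell at least 4.20-fold on 1 of 3 probe sets, whereas the other 2 were below the limit in both lines.

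Genes expressed from the maternal allele showed 1 rise and 1 fall among 30 tested, with a median of 0.00. Grb10, a growth inhibitor gene, read 9.55, 9.66 and 9.38 against 11.06, 11.11 and 11.17 and fell 2.99-fold (-1.58 ± 0.08), and its other probe sets gave -2.17 and -1.5. Ascl2, a trophoblast transcription factor, read 7.22, 7.14 and 6.86 against 5.79, 5.77 and 5.72 and rose 2.49-fold (1.31 ± 0.16). The Dlk1-Dio3 cluster RNAs Meg3 (-0.89 ± 0.14), Rian (-0.68 ± 0.12) and Mirg (-0.58 ± 0.19) were each lower by less than the fold minimum on the probe set used. The other Meg3 probe sets ranged from -1.76, past the fold minimum, to 0.04. In the growth-restricting group, Cdkn1c differed by 0.61 ± 0.10, Phlda2 by -0.13 ± 0.07 and Igf2r by -0.01 ± 0.11, none called. Cdkn1c was nevertheless 2.36 higher in FpB6CBA than in OpB6D2 and 2.09 higher than in FpB6D2, both called. The remaining members lay between -0.77 (Pon2) and 0.94 (Trappc9), among them Blcap (-0.45), Cd81 (0.51), Commd1 (0.35), Ddc (0.35), Gnas (0.04), Ube3a (-0.28) and Tfpi2 (0.49).

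**Figure D3:**
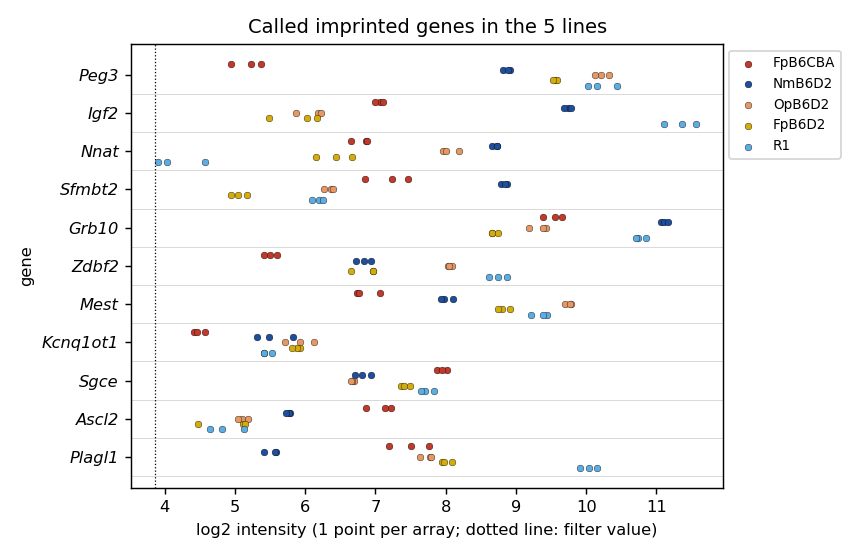
Log2 intensity (horizontal axis, 1 point per array) of the 11 called imprinted genes in the 5 lines, with the limit for testing as a dotted line. The genes were drawn because they were called, so FpB6CBA (red) lies apart from NmB6D2 (dark blue) by that choice. FpB6CBA is the lowest line for Peg3, Zdbf2, Mest and Kcnq1ot1, and lies above OpB6D2 and FpB6D2 for Igf2 and Sfmbt2.

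The median of X-linked genes lay close to 0 between FpB6CBA and NmB6D2. Of 414 X-linked genes tested, 15 rose and 12 fell. The share called was 6.52%, against 4.20% of all tested genes and 2.72% (chromosome 4) to 7.84% (chromosome 14) on single autosomes. The X-linked median difference was -0.01, and autosomal medians ran from 0.00 to 0.05. The mean of X-linked genes minus the mean of autosomal genes was -0.17, -0.16 and -0.19 on the FpB6CBA arrays and -0.14, -0.14 and -0.16 on the NmB6D2 arrays. It was 0.33 to 0.36 on the arrays of OpB6D2 and FpB6D2 and -0.13 to -0.10 on those of R1. FpB6CBA therefore read with the 2 fertilised lines and below the other parthenogenetic lines for X-linked genes as a whole: the X-linked median was -0.47 against OpB6D2 (15 higher, 97 lower) and -0.47 against FpB6D2 (12 higher, 78 lower). Xist, whose RNA silences an X chromosome in cis, read 4.59, 4.41 and 4.61 in FpB6CBA and 4.72, 4.40 and 4.60 in NmB6D2, which overlap (-0.03 ± 0.15). Single X-linked genes did change. Efhc2 read 7.88, 7.92 and 7.86 against 4.11, 4.04 and 4.09, a rise of 13.9-fold (3.80 ± 0.07), and was high in OpB6D2 (8.77) and FpB6D2 (9.97) as well. Ezhip, an inhibitor of Polycomb repressive complex 2, rose 2.15-fold (1.11 ± 0.07), and Zfp280c fell 5.91-fold (-2.56 ± 0.12). Eif2s3x, which escapes silencing, was lower by less than the fold minimum on the probe set used (-0.79 ± 0.06). Its other probe sets gave -1.15, past the fold minimum, and -0.43. Of 4 Y-linked genes tested, 3 fell, and 1 of the 4 reached the limit for testing only through the NmB6D2 arrays. With no filter on low values 3 fell as well. Eif2s3y, a translation factor gene, read 2.76, 2.71 and 2.72 in FpB6CBA, below the limit for testing, and 8.65, 8.78 and 8.41 in NmB6D2, at least 26.9-fold apart. Uty (at least 1.19-fold) and Uba1y (at least 1.31-fold) were weak in NmB6D2 too, and their calls lay near the fold minimum on the probe sets used. A second probe set gave -1.98 for Uty (2.58 against 4.57) and -1.31 for Uba1y (3.01 against 4.32). Further Uty probe sets lay below the limit for testing in both lines. Uba1y was lost without replicate 2 of FpB6CBA (-0.91) or replicate 3 of NmB6D2 (-0.87). Sry was not called (0.19 ± 0.14).

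**Figure D4:**
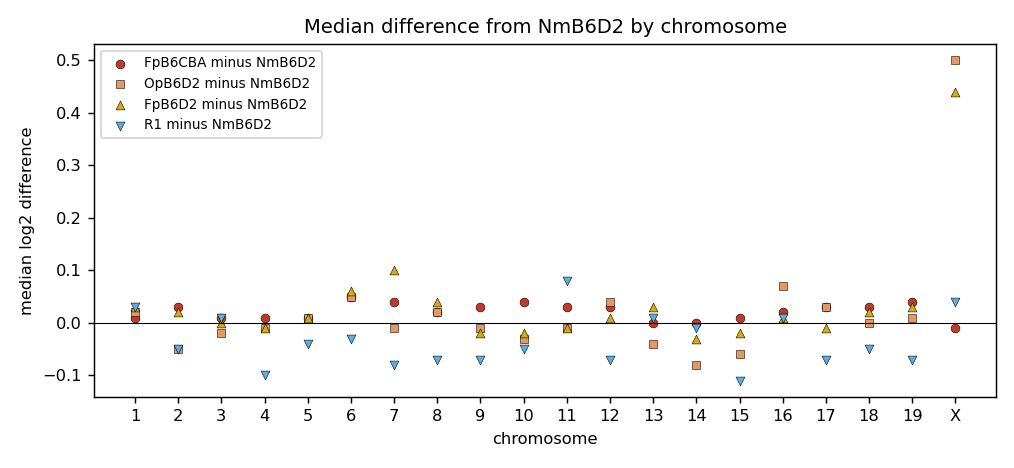
Median log2 difference from NmB6D2 over the tested genes of each chromosome (1 to 19 and X), 1 symbol per line; the 4 comparisons share the NmB6D2 arrays. On the X chromosome FpB6CBA lies at -0.01 and R1 at 0.04, whereas OpB6D2 lies at 0.50 and FpB6D2 at 0.44.

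Pluripotency genes split. Of 14 core genes, 0 rose and 2 fell, and of 24 naive genes, which mark the preimplantation-like ES state, 6 rose and 3 fell. Nanog read 9.71, 9.82 and 9.89 in FpB6CBA and 10.49, 10.43 and 10.37 in NmB6D2, lower by less than the fold minimum (-0.62 ± 0.06). The core falls were Lin28a and Trim71, regulators of let-7 and its targets. Trim71 (-1.02 ± 0.09) lay at the fold minimum and was lost without replicate 1 of FpB6CBA (-0.95) or replicate 2 of NmB6D2 (-0.98), among others. Lin28a fell by 1.40 on its brighter probe set but differed by 0.74 upwards on the other. Gbx2, a naive-state homeobox factor, read 5.69, 5.68 and 5.33 against 8.14, 8.04 and 7.95, a fall of 5.55-fold (-2.47 ± 0.09). It was above 8 in the means of the other 4 lines (8.04 in NmB6D2 to 8.93 in OpB6D2), as Myc was above 7. Tcl1, a coactivator of Akt kinase, read 8.33, 8.21 and 8.10 against 5.41, 5.62 and 5.55, a rise of 6.43-fold (2.68 ± 0.07). Prdm14 (2.82-fold) and Tbx3 (2.34-fold), repressors of differentiation, rose as well. For Tcl1, Prdm14 and Tbx3 it was NmB6D2 that had the lowest mean of the 5 lines. Esrrb (0.08 ± 0.05), Klf2 (0.02 ± 0.07) and Klf4 (-0.45 ± 0.06) were not called.

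FGF signalling through ERK induces its own feedback inhibitors, and 4 of 21 genes of this list fell and 1 rose, with a median of -0.48. Dusp6, an ERK phosphatase gene, read 7.41, 7.57 and 7.43 against 9.16, 9.23 and 9.19, a fall of 3.31-fold (-1.73 ± 0.06, adjusted p = 8.7e-11). Spry4, a feedback inhibitor, fell 2.77-fold (-1.47 ± 0.08) but by 0.86 when probe sets were averaged. Dusp5 (-1.03 ± 0.08) and the ETS factor gene Etv5 (-1.01 ± 0.07) lay at the fold minimum, and Dusp5 was lost without replicate 2 of FpB6CBA (-0.98). The FGF receptor gene Fgfr1 (-0.82 ± 0.13), Spred1 (-0.89 ± 0.07), Spred2 (-0.74 ± 0.07) and Etv4 (-0.63 ± 0.06) were lower without a call, and the ligand gene Fgf4 differed by 0.21 ± 0.06. The immediate early gene Fos went the other way, reading 9.66, 9.33 and 9.66 against 7.62, 7.62 and 7.59 (3.83-fold, 1.94 ± 0.09), whereas Egr1 overlapped between the lines (0.23 ± 0.18).

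Of 16 genes of the DNA methylation machinery, 4 fell and 0 rose. The de novo methyltransferase gene Dnmt3a read 7.55, 7.55 and 7.26 against 9.08, 9.09 and 8.96, a fall of 3.01-fold (-1.59 ± 0.08, adjusted p = 3.4e-09), and its 5 probe sets ranged from -2.44 to -1.40. Dnmt3b read 9.41, 9.51 and 9.49 against 10.67, 10.72 and 10.66 (2.31-fold, -1.21 ± 0.05). Zfp57, the zinc finger factor that protects imprints, read 6.55, 6.21 and 6.74 against 7.84, 7.78 and 7.90 (-1.34 ± 0.15), and FpB6CBA was the lowest of the 5 lines for it (8.88 in OpB6D2, 8.85 in FpB6D2 and 8.03 in R1). Tet1, which oxidises methylcytosine, fell by 1.15 and was lost without replicate 3 of FpB6CBA (-0.99). The maintenance enzyme Dnmt1 (0.19 ± 0.08), its partner Uhrf1 (-0.47 ± 0.06), the cofactor Dnmt3l (0.44 ± 0.06) and the corepressor Trim28 (0.09 ± 0.06) were not called. Dnmt3a and Dnmt3b were not low in FpB6CBA alone: FpB6D2 had means of 7.91 and 9.09 and R1 of 6.26 and 8.63.

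Of 16 retinoic acid genes, 4 rose and 0 fell, and 1 of the 16 reached the limit for testing only through the FpB6CBA arrays. Rbp4, the retinol carrier, was at least 4.89-fold higher, reading 6.21, 6.08 and 6.17 against 3.77, 3.78 and 4.02. The binding protein gene Crabp1 rose by 1.49, the meiotic gatekeeper Stra8 by 1.38 and the degrading enzyme gene Cyp26a1 by 1.38. The receptor genes Rara (-0.47 ± 0.15) and Rarg (-0.60 ± 0.07) were not called. Of 20 trophectoderm genes, 2 rose and 3 fell. Among the 20, 1 reached the limit for testing only through the NmB6D2 arrays, where a fall was then favoured. With no filter on low values the counts were again 2 and 3. Elf5, a trophoblast transcription factor, read 3.72, 3.71 and 3.63 in FpB6CBA, below the limit for testing, and 7.06, 6.75 and 7.05 in NmB6D2, at least 8.51-fold apart. Elf5 was below that limit in the means of OpB6D2, FpB6D2 and R1 as well, so NmB6D2 was the line that stood apart. Lgals3 (1.34 ± 0.06) and Ascl2 rose, and Id2 fell by 1.34 but by 0.68 when probe sets were averaged. Of 16 primed epiblast genes, Otx2 rose (1.36 ± 0.10) and Dnmt3b and Pou3f1 (-1.22 ± 0.17) fell. Of 29 Nodal, activin and BMP genes, 2 fell, Id2 and the BMP target Id1, the latter at the fold minimum (-1.02 ± 0.06) and lost without replicate 1 of FpB6CBA (-0.98).

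Further lists held few called genes, and the share called over all tested genes was 4.20%. At that share, 0 calls in lists of these sizes is no result about a list. Most lists of this paragraph with a call are so short that 1 call alone exceeds that share. Such calls are therefore no result about a list either. None of the genes of LIF and STAT3 signalling (14 tested), mesendoderm (12), p53 targets (19), oxidative phosphorylation (28), mitosis (22), cholesterol synthesis (16), ATF4 and amino acid synthesis (19), histones (8), 2-cell-like cells (2) or X-linked escape genes with Xist (7) was called. Of the oxidative phosphorylation genes 26 of 28 were above 0 (median 0.24), with Ndufv1 the furthest (0.55 ± 0.06), and of the mitosis genes 17 of 22 were below 0 (median -0.16), with Cenpf the furthest (-0.83 ± 0.09). Cdkn1a, the p53 target that stops the cell cycle, differed by 0.83 ± 0.08 and Pim1, a STAT3 target, by -0.72 ± 0.12. Idi1 (-0.80 ± 0.07), Vldlr (0.89 ± 0.08), Snai1 (0.96 ± 0.17), H2az1 (-0.52 ± 0.06) and Usp17la (0.32 ± 0.17) were the furthest of their lists. Another probe set lay past the fold minimum for Cenpf (-1.04), Pim1 (-1.05), Idi1 (-1.35) and Vldlr (1.08). Further ones of Cenpf (-0.49) and Vldlr (-0.29 to 0.27) did not, nor did those of Cdkn1a (0.46), H2az1 (-0.71) and Ndufv1 (0.51 and 0.35). Ldhb, a lactate dehydrogenase subunit, was the only call among 17 glycolytic enzymes (1.66 ± 0.06) and P4ha2, a collagen prolyl hydroxylase, among 20 other hypoxia-inducible genes (1.43 ± 0.11). Of 26 epithelial junction genes, the desmosomal genes Dsp (1.45 ± 0.13) and Dsc2 (-1.10 ± 0.17) changed in opposite directions. Dsp was lost without ambiguous probe sets (0.56) and Dsc2 without replicate 3 of FpB6CBA (-0.93). Of 31 Wnt genes, the inhibitor Sfrp1 rose (1.49 ± 0.09) and the ligand Wnt7b fell (-1.05 ± 0.10), and both were lost when probe sets were averaged (0.88 and -0.92). Among 20 interferon-stimulated genes, Ifi27 (1.52 ± 0.11) and Oas1a (1.40 ± 0.07) rose and Gbp2 fell (-1.09 ± 0.15), the last lost without replicate 3 of FpB6CBA (-0.91). Of the 20, 3 reached the limit for testing only through the FpB6CBA arrays. H2-D1, an MHC class I gene, rose by 1.04 (1 of 13), though by 0.47 without ambiguous probe sets. The oxidant defence genes Gpx3 (1.45 ± 0.06) and Mgst1 (1.09 ± 0.17) rose, Mgst1 by 0.54 when probe sets were averaged, out of 24. The other Mgst1 probe set lay below the limit for testing in both lines. The neural factor Sox11 fell (-1.22 ± 0.13), 1 of 11 neuroectoderm genes. Of 12 genes of Polycomb repressive complex 2, Ezhip was the 1 called, and of 6 Pramel and Rhox genes, Rhox13.

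**Figure D5:**
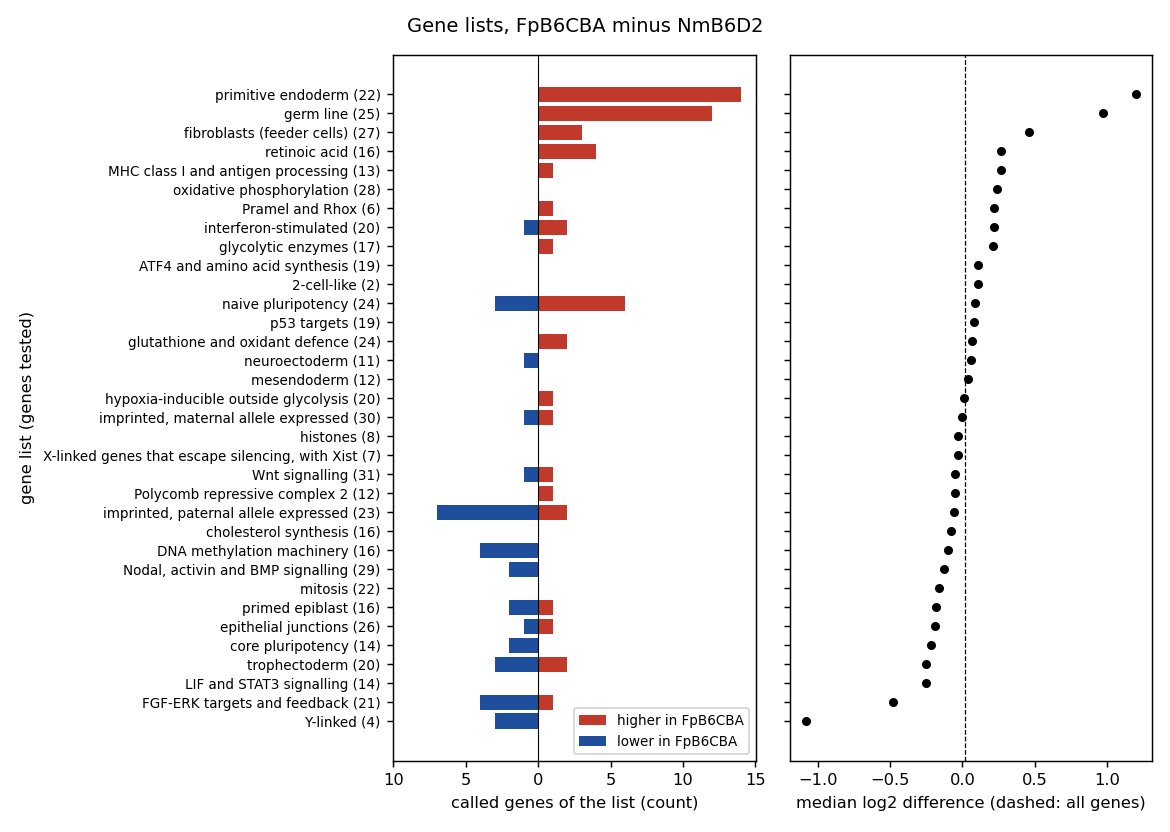
Called genes per list (left, counts, higher in FpB6CBA to the right and lower to the left of 0) and the median log2 difference of the tested genes of each list (right), with the number tested in brackets and the median of all genes (0.02) dashed. Primitive endoderm (14 higher, 0 lower) and germ line (12 higher, 0 lower) have the highest medians, and the FGF-ERK list (-0.48) lies lowest but for the 4 Y-linked genes.

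The largest single rises were mostly of genes outside these lists. Baiap2l1, an adaptor of membrane and actin, read 10.86, 10.81 and 10.77 in FpB6CBA and 6.61, 6.79 and 6.43 in NmB6D2, a rise of 18.4-fold (4.20 ± 0.12, adjusted p = 1.4e-11). Its second probe set gave 4.27, and the other 3 lines had means of 4.29 to 4.97, so FpB6CBA was the highest line. Ipp read 9.48, 9.66 and 9.46 against 5.54, 5.76 and 5.71 (14.6-fold, 3.87 ± 0.08), and the other 3 lines lay between 4.85 and 5.49. Dnah12, an axonemal dynein heavy chain, was at least 6.61-fold higher and Lyz1, a lysozyme, at least 6.53-fold. The Lyz1 rise rests on 1 ambiguous probe set. Its other probe sets gave 1.22 and 0.03 and lay below the limit for testing in both lines. Ctsh, a lysosomal protease, rose 10.7-fold (3.42 ± 0.10). Spink1, a secreted protease inhibitor, rose 9.04-fold (3.18 ± 0.06), with values of 7.58, 7.50 and 7.69 against 4.47, 4.28 and 4.48. Several large falls depended on the probe set too. Pdxdc1 fell by 5.02 on the probe set with the highest mean, but another probe set gave a rise of 3.67, and the mean over its probe sets was 0.01. The probe sets of Prune2 gave -2.86, 0.25, -0.03 and 0.11, and those of Rpgrip1 gave -2.66 on 1 and values between -0.20 and 0.29 on the other 3, which lay below the limit for testing. Tasor2, a subunit paralogue of the silencing complex HUSH, read 4.57, 4.68 and 5.07 against 7.17, 7.38 and 7.00 (-2.41 ± 0.12), and FpB6D2 read low too (4.97). Strain variants under a probe can change its signal, and their part in these differences was not tested.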

How the data were processed

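RNA of 5 ES cell lines was measured on Affymetrix mouse expression arrays, 3 per line. The authors deposited 1 log2 value per probe set and array (45101 probe sets, values 1.99 to 13.96). The submitters' processing notes name RMA and affy without versions or settings. The log base is not given in the sources used here and was read as log2 from the range.

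Probe sets with 1 gene symbol (34945; 932 had several, 9160 none, 64 were controls) were joined to genes through the platform annotation and a RefSeq table, where 18029 genes matched. Each gene was read from its brightest probe set by the mean of 15 arrays (18193 genes). Genes at 3.864 or more on at least 3 arrays were tested (12813), and 5380 were not. Line means were fitted to the 15 arrays together with limma 3.58.1 in R 4.3.3 (empirical Bayes), which gave differences, SEs and Benjamini-Hochberg adjusted p values over all tested genes. Calls needed an adjusted p under 0.05 and a 2-fold difference. Where a line lay below 3.864, the fold is a lower bound against that value. No further normalisation was applied, and the number of arrays limits the precision. In simulated data of 12813 genes, 200 genes were shifted by 1.5 on the log2 scale: 100% were called, as were 0 of the rest. The shift was well above the fold minimum, the noise was independent between arrays and the other genes had no difference. The simulation therefore only checks that the fit runs correctly. It says nothing of genes near the fold minimum or of differences between cultures.

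The members and gene lists were chosen with earlier results of these data known. The genes named are the 12 largest rises and 12 largest falls with a gene name, up to 4 called genes per list or the furthest uncalled one, all imprinted and Y-linked genes tested, Xist, Pou5f1, Sox2 and Nanog, and further list members as contrasts, chosen after their values were seen. An array without a number in its title was called FpB6CBA replicate 2. Alternatives covered filters, probe set choice, normalisation, variance models, thresholds, a replicate block and leaving out each array. Plots were drawn with matplotlib 3.10.9.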

Additional observations from a re-analysis of the deposited data

Results flagged for a closer look

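Among the 135 genes named by rule, the only ones searched for this, there were 9 in which the difference of FpB6CBA from NmB6D2 and that of another parthenogenetic line from NmB6D2 were both called and had opposite signs. The comparisons share the NmB6D2 arrays, so the difference itself was tested between the parthenogenetic lines with limma (3 arrays per line), and all the differences below were called. Baiap2l1 was higher in FpB6CBA (4.20) and lower in OpB6D2 (-1.64) and FpB6D2 (-2.32), with FpB6CBA above them by 5.84 ± 0.12 (adjusted p = 5.4e-13) and 6.52 ± 0.12 (adjusted p = 1.4e-13).

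Among imprinted genes expressed from the paternal allele, Peg3 (-3.68 in FpB6CBA, 1.36 in OpB6D2) differed by -5.04 ± 0.11 between those lines (adjusted p = 5.4e-13). Mest (-1.15 and 1.74) differed by -2.89 ± 0.09 (adjusted p = 1e-11), and Zdbf2 (-1.32 and 1.22) by -2.55 ± 0.09 (adjusted p = 4.2e-11). Zfp57, the factor that protects imprints, was -1.34 in FpB6CBA, 1.04 in OpB6D2 and 1.01 in FpB6D2, with differences of -2.38 ± 0.15 (adjusted p = 9.5e-09) and -2.35 ± 0.15 (adjusted p = 8.8e-09). 

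Fos was 1.94 in FpB6CBA and -1.10 in FpB6D2, a difference of 3.04 ± 0.09 (adjusted p = 4.1e-12). Dsp was 1.45 in FpB6CBA, -2.54 in OpB6D2 and -2.18 in FpB6D2, with differences of 4.00 ± 0.13 (adjusted p = 2.1e-11) and 3.63 ± 0.13 (adjusted p = 4.7e-11). P4ha2 was 1.43 in FpB6CBA and -1.23 in OpB6D2, a difference of 2.66 ± 0.11 (adjusted p = 1.8e-10). Prune2 was -2.86 in FpB6CBA, 1.33 in OpB6D2 and 1.24 in FpB6D2 (differences -4.19 ± 0.11, adjusted p = 2.2e-12, and -4.10 ± 0.11, adjusted p = 1.6e-12), on 1 of its 4 probe sets.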

How the results depend on the processing

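Leaving out each array in turn gave 526 to 570 called genes (538 with all arrays), 310 to 387 higher, 175 to 247 lower, and an X-linked median of -0.02 to 0.01. Averaging the probe sets of a gene gave 368 called genes, 242 higher and 126 lower. Counting each probe set on its own gave 965 called, 463 higher and 502 lower, with an X-linked median of -0.05. With no fold minimum 6444 genes passed (3505 higher, 2939 lower), and with a 1.5-fold minimum 1930 (1038 higher, 892 lower). Other filters, centring, quantile normalisation, a fit of the 6 arrays alone, other variance models, a stricter p and leaving out sex-linked genes kept each count within 1.5 times. Array weights gave 358 higher and 185 lower. The title numbers pair no arrays: same-numbered arrays of different lines correlated in their deviations at -0.181 to 0.127. With the replicate block, 596 genes were called (304 higher, 292 lower) the X-linked median was -0.03, and of the Y-linked genes Uty (-0.88) and Uba1y (-0.99) missed the fold minimum, which left 1 fall. Pdxdc1 turned to 0.01 with averaged probe sets, as did Lin28a between FpB6CBA and OpB6D2 (0.20, adjusted p = 0.063). Of 78 called genes among the 135 named by rule, 53 kept their call under every alternative run that tested them and 25 lost it under at least 1, 18 of these and Pdxdc1 with averaged probe sets, and the cause was not tested.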

Other observations

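Further germ-cell genes outside the lists were also higher in FpB6CBA, chosen here after their values were seen. Rec114, a gene of meiotic double-strand break formation, differed by 2.66 ± 0.10 (adjusted p = 1.5e-10), Nlrp14, an oocyte gene, by 2.48 ± 0.10, Sohlh2, a germ-cell transcription factor, by 2.12 ± 0.07, Aurkc, the meiotic Aurora kinase, by 2.07 ± 0.16, and Syce3, a synaptonemal complex gene, by 1.98 ± 0.12. Lama3, a laminin chain, was higher by 2.30 ± 0.12, beside the rises of Lama1 and Lamb1. Hesx1, a homeobox gene of the epiblast and forebrain, was higher by 2.80 ± 0.15.

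Among genes lower in FpB6CBA outside the lists, Prtg, a cell surface receptor gene of early epiblast and neural tissue, differed by -2.16 ± 0.20. Dok2, an adaptor of tyrosine kinase signalling, differed by -2.08 ± 0.11, and Sp3, a transcription factor, by -1.77 ± 0.11. These are single genes picked for their size, and no count or test of a group rests on them.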
